A study of Gossypium barbadense with 4 samples.

Results

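The genes described here are the cytosolic ribosomal proteins and translation factors of cotton that could be named on the Affymetrix Cotton Genome Array. They were chosen by words alone: a probe set belonged if its product description held "ribosomal protein", "elongation factor" or "initiation factor" and did not name the chloroplast, the plastid or the mitochondrion. Of 24029 probe sets, 49 were chosen, and they stood for 30 proteins. They comprised 14 probe sets for 8 proteins of the small ribosomal subunit, 16 for 12 proteins of the large subunit, 9 for 2 elongation factors, 7 for 6 translation initiation factors and 3 for 2 transcription initiation factors. The last 3 met the wording of the rule only, since transcription initiation factors act on RNA polymerase and not on the ribosome.

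A ribosome consists of a small subunit, which reads the messenger RNA, and a large subunit, which joins the amino acids. Initiation factors bring the small subunit to the start codon, and elongation factors then deliver each aminoacyl-tRNA and move the ribosome along the message. Cytosolic ribosomal proteins are encoded in the nucleus by small gene families, and growing tissues express them strongly. Plastids and mitochondria have their own ribosomes, some of whose proteins carry the same letter and number as cytosolic ones.

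RNA was taken from anthers and ovules of Gossypium barbadense flowers at 0 days post-anthesis (0 DPA). One genotype was 57-4, a natural semigametic mutant in which sperm and egg nuclei may divide without fusing, and the other was Pima S-1, the non-semigametic cultivar in which it arose. Both genotypes were started in a greenhouse and finished in the field. The 4 arrays were 57-4 anthers, Pima S-1 anthers, 57-4 ovules and Pima S-1 ovules, and each received equal molar amounts of RNA of 3 field replicates, 10 flowers to a replicate.

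With 1 array per group no replicate error was available, so differences are given as ratios without a test. Signals are MAS5 intensities, and each array had the same trimmed mean of 250.1. Signals below 50 were raised to 50 before the log2 ratio was taken, ratios of 2-fold or more were counted, and where the dimmer signal was below 50 the fold is a lower bound. Of the 49 probe sets, 43 reached 50 on all 4 arrays, 5 on some arrays and 1 on none. The 3'/5' signal ratios of the housekeeping controls, a measure of RNA or cDNA length, were 11.7 to 21.1 on the 57-4 arrays and 4.18 to 11.8 on the Pima S-1 arrays, and their part in the results was not tested. Of 12 probe sets described as fibre or ovule proteins, 5 were at least 2-fold lower in anthers than in ovules of Pima S-1 and 2 of 11 measured were in 57-4. The shares were 20.1% and 14.6% of all described probe sets, and 8.6% and 7.26% of all measured ones. In the other direction, 4 of the 12 had a higher signal in anthers of Pima S-1, and 2 of the 11 in 57-4. No described probe set carried an anther or pollen name. Between genotypes, all 11 of these fibre or ovule probe sets measured in ovules were lower in 57-4 (median log2 ratio -0.65), as were 9 of 12 in anthers (median -0.49). Most described probe sets were lower too, 83.8% in ovules (median -0.58) and 72.1% in anthers (median -0.29). The part of the fibre or ovule probe sets in the results was not tested. In pooled tissue, fewer cells of a type and less RNA per cell cannot be told apart.

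Product descriptions existed only for 1439 probe sets that the study had called on these same arrays, 43 of the 49 in ovules and 6 in anthers. The genotype ratios below therefore describe the chosen genes and are not independent evidence of their direction. In a table of the study, the signals of all 43 ovule probe sets match the deposited columns only with the genotype names exchanged. The deposited labels were followed here, and with the ovule columns exchanged every ovule genotype ratio would turn its sign and the tissue ratios of the genotypes would change too.

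In ovules, most of the translation genes had a lower signal in 57-4 than in Pima S-1, by a modest amount. Of the 48 measured, 41 were lower and 7 higher, with a median log2 ratio of -0.55, and 33 lay between -1 and -0.4. At least 2-fold differences numbered 5 lower, against 4.14% of all measured probe sets and 12.2% of the described ones, and 4 higher, against 4.46% and 6.17%. Over all 14707 measured probe sets the median was 0.06, and 44.2% were lower. Over the 1393 measured described probe sets, which were chosen in the same way, the median was -0.58 and 83.8% were lower, so the share of translation genes that were lower was close to that of the described genes in general. When only probe sets with both signals at or above 500 were used, 20 of 22 translation genes were lower with a median of -0.55. The 3333 such probe sets of the whole array had a median of -0.01, with 51.1% lower. They are not limited to the study's calls, and the described probe sets were not recomputed at this limit. With arrays scaled on the hybridization controls the counts were 18 lower and 3 higher, beside 10.7% lower and 1.5% higher over all probe sets. With quantile normalization they were 3 lower and 3 higher, beside 4.27% and 3.54%.

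**Figure D1:**
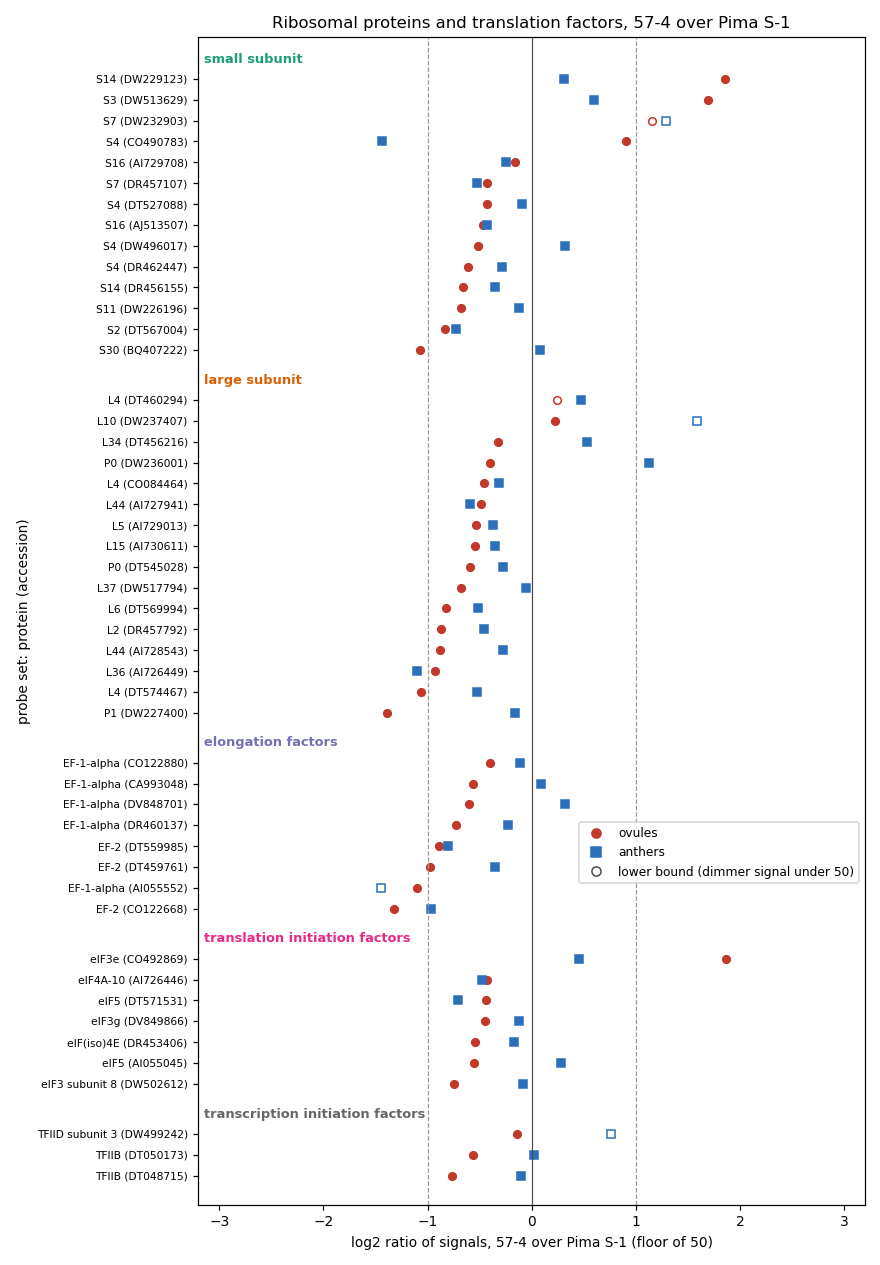
Log2 ratio of the 57-4 signal over the Pima S-1 signal for each of the 48 measured probe sets, grouped by role, with circles for ovules and squares for anthers; open symbols are lower bounds because the dimmer signal was below 50, and dashed lines mark 2-fold. Of the ovule points 41 lie left of 0, and the 4 beyond the right dashed line are S14, S3, S7 and eIF3e.

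The elongation factors had the lowest ovule median of the 5 roles, -0.81, and all 8 measured probe sets were lower in 57-4. Elongation factor 2 (EF-2) is the GTPase that moves the ribosome by one codon. Its probe set CO122668 gave 110.9 in 57-4 ovules against 276.6 in Pima S-1 ovules, a log2 ratio of -1.32. The other EF-2 probe sets gave 1779.7 in 57-4 against 3307.1 in Pima S-1 (DT559985, -0.89) and 136.0 in 57-4 against 267.4 in Pima S-1 (DT459761, -0.98). All 3 EF-2 probe sets were thus lower in 57-4 ovules, within 0.42 log2 units of each other.

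Elongation factor 1-alpha (EF-1-alpha), which carries aminoacyl-tRNA to the ribosome and is among the most abundant proteins of plant cells, was represented by 6 probe sets. AI055552 gave 137.8 in 57-4 ovules against 295.2 in Pima S-1 ovules, a log2 ratio of -1.10. DR460137 gave 971.5 in 57-4 against 1605.5 in Pima S-1 (-0.72), and CA993048 gave 854.5 in 57-4 against 1267.7 in Pima S-1 (-0.57). These 3 and the next 2 were all lower in 57-4, although only AI055552 reached 2-fold. DV848701 gave 304.2 in 57-4 against 463.5 in Pima S-1 (-0.61), and CO122880 gave 593.0 in 57-4 against 785.4 in Pima S-1 (-0.41). The last, CO128711, stayed below 50 on all 4 arrays, between 5.1 and 32.9, and has no ratio.

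Among the proteins of the large subunit, 14 of 16 probe sets were lower in 57-4 ovules, with a median of -0.57, 2 of them at least 2-fold and none at least 2-fold higher. P1 (DW227400), an acidic protein of the stalk on which elongation factors dock, gave 432.5 in 57-4 ovules against 1132.9 in Pima S-1 ovules, a log2 ratio of -1.39. L4 (DT574467), a protein lining the peptide exit tunnel, gave 632.9 in 57-4 against 1324.0 in Pima S-1 (-1.06). Other L4 probe sets differed from it. CO084464 gave 3337.1 in 57-4 against 4594.3 in Pima S-1 (-0.46), and the dim DT460294 gave 59.2 in 57-4 against 13.9 in Pima S-1, at least 1.18-fold higher.

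Some of the bright large-subunit probe sets were lower by similar amounts. L15 (AI730611) gave 3913.3 in 57-4 ovules against 5728.6 in Pima S-1 ovules (-0.55), and L5 (AI729013), the protein that escorts 5S ribosomal RNA, gave 2761.2 in 57-4 against 3998.2 in Pima S-1 (-0.53). L44 had 2 probe sets, at 873.5 in 57-4 against 1223.2 in Pima S-1 (AI727941, -0.49) and 142.9 in 57-4 against 262.4 in Pima S-1 (AI728543, -0.88). P0, the base of the stalk, also had 2, at 395.0 in 57-4 against 597.8 in Pima S-1 (DT545028, -0.60) and 306.9 in 57-4 against 405.1 in Pima S-1 (DW236001, -0.40). Both probe sets of each protein were lower in 57-4, although the array's cluster title for L44 AI728543 named an unknown protein. The rest, L2, L6, L10, L34, L36 and L37, ranged from -0.93 for L36 (AI726449) to 0.23 for L10 (DW237407), the one of them that was higher.

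The small subunit held both directions. Of its 14 probe sets, 10 were lower and 4 higher in 57-4 ovules, with a median of -0.45, 1 at least 2-fold lower and 3 at least 2-fold higher. S30 (BQ407222), which in animals is made as a fusion with a ubiquitin-like peptide, gave 500.2 in 57-4 ovules against 1050.5 in Pima S-1 ovules, a log2 ratio of -1.07. S3 (DW513629), at the place where messenger RNA enters the ribosome, gave 3840.4 in 57-4 against 1187.4 in Pima S-1 (1.69). S14 (DW229123) gave 1750.9 in 57-4 against 485.0 in Pima S-1 (1.85). S7 (DW232903) gave 111.5 in 57-4 against 48.9 in Pima S-1, at least 2.23-fold higher.

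For S14 and S7 a second probe set ran the other way. S14 DR456155 gave 484.8 in 57-4 ovules against 767.8 in Pima S-1 ovules (-0.66), and S7 DR457107 gave 391.8 in 57-4 against 527.2 in Pima S-1 (-0.43). The array's cluster title for S7 DR457107 named an unknown protein. The S14 probe set that was lower was described as a 40S protein, the S14 probe set that was higher carried no such prefix, and neither S7 probe set carried it. Over the 30 ribosomal protein probe sets, the 23 described as 40S or 60S included 3 at least 2-fold lower and 0 at least 2-fold higher in 57-4 ovules, with a median of -0.53. The 7 described without either word included 0 at least 2-fold lower and 3 at least 2-fold higher, with a median of -0.43, and these 3 were S3, S7 and S14. All 3 were tied to their descriptions by accession without its version, and when versions had to match they dropped out and 1 gene, eIF3e, was left at least 2-fold higher. S3, S7, S14 and L2 are also names of proteins encoded by organelle genomes of land plants, and these descriptions do not name the compartment. The split by prefix was made after the values had been seen.

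The 9 probe sets described as plastid translation proteins are set beside them for that reason. Of these, 3 were at least 2-fold higher and 0 at least 2-fold lower in 57-4 ovules, with a median of -0.41. Over all measured probe sets 4.46% were at least 2-fold higher and 4.14% lower, and over the described ones 6.17% and 12.2%. L22 (DN779773) gave 1808.8 in 57-4 ovules against 480.5 in Pima S-1 ovules (1.91), L32 (DT461698) gave 244.4 in 57-4 against 71.3 in Pima S-1 (1.78), and L33 (DW234222) was at least 5.24-fold higher. The other 6 were lower, and the furthest of them was CA992778 (-0.84), described as S18. Elsewhere the study names CA992778 as a chlorophyll A/B binding protein, so this label is doubtful. Of these 6, DT047683 carried the name HyPRP1 rather than a ribosomal protein number, and its label was not checked. In anthers, 3 of the 9 were higher in 57-4 and 6 lower, among them L22 (-0.07), L32 (-1.76) and L33 (-0.65). Of all described probe sets 72.1% were lower there. S3 (0.60), S14 DW229123 (0.31) and S7 DW232903 (1.29, a lower bound) were higher in 57-4 anthers. Whether the S3, S7 and S14 probe sets detect cytosolic or organelle transcripts was not tested.

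S4, another 40S protein, had 4 probe sets. DT527088 gave 3281.4 in 57-4 ovules against 4427.9 in Pima S-1 ovules (-0.43), DR462447 gave 188.4 in 57-4 against 287.7 in Pima S-1 (-0.61), and DW496017 gave 499.9 in 57-4 against 713.5 in Pima S-1 (-0.51). These 3 were lower in 57-4 by similar amounts. CO490783 stood apart from them, at 2208.0 in 57-4 against 1177.4 in Pima S-1 (0.91), and the array's own cluster title for this probe set named a polyprotein. S16, which lies near the tRNA sites of the small subunit, was lower with both probe sets, at 1174.8 in 57-4 against 1316.3 in Pima S-1 (AI729708, -0.16) and 947.6 in 57-4 against 1308.6 in Pima S-1 (AJ513507, -0.47). S11 (DW226196) gave 1089.7 in 57-4 against 1742.8 in Pima S-1 (-0.68), and S2 (DT567004) gave 560.6 in 57-4 against 1000.4 in Pima S-1 (-0.84).

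**Figure D2:**
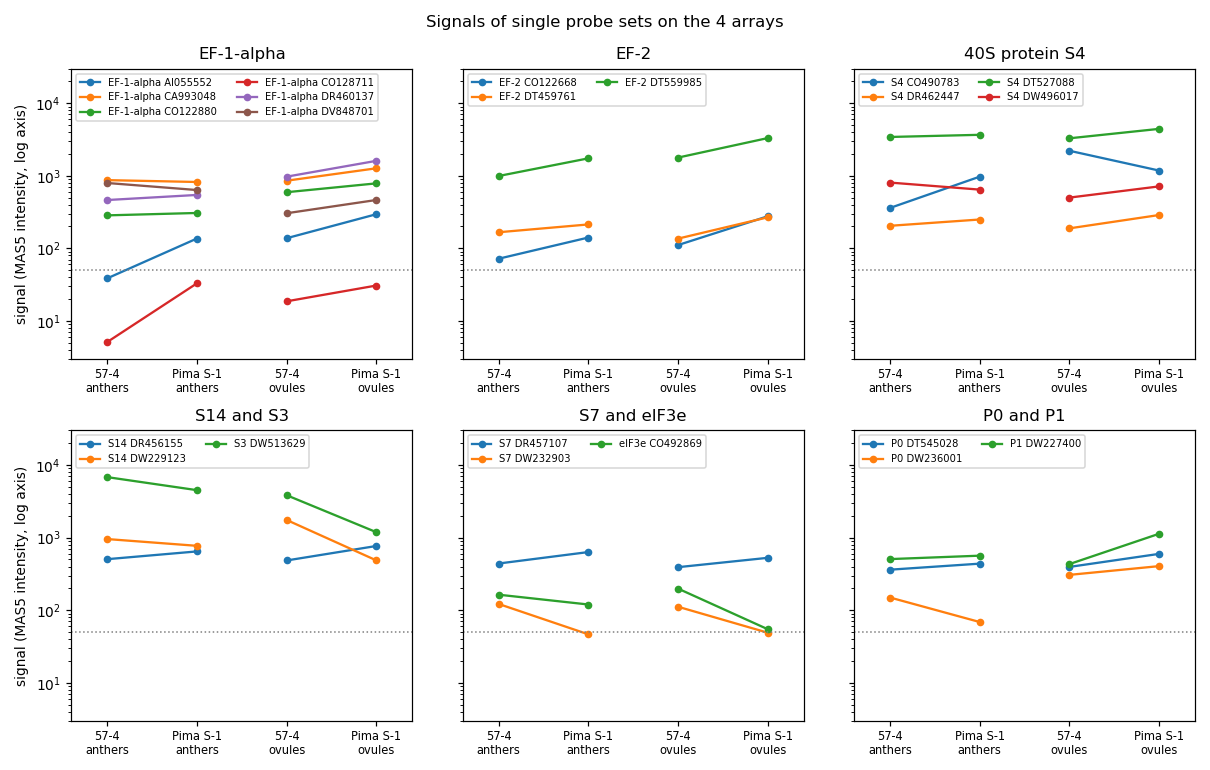
Signal of single probe sets (MAS5 intensity, log axis) on the 4 arrays for EF-1-alpha, EF-2, S4, S14 with S3, S7 with eIF3e, and P0 with P1; lines join 57-4 to Pima S-1 within a tissue, and the dotted line is the floor of 50. In ovules the lines of EF-1-alpha and EF-2 slope up to Pima S-1, while those of S3, S14 DW229123, S7 DW232903, eIF3e and S4 CO490783 slope down.

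Of the 7 translation initiation factor probe sets, 6 were lower in 57-4 ovules, with log2 ratios of -0.75 to -0.43 and a median over the 7 of -0.45. The exception was eIF3e (CO492869), a subunit of the factor that binds the small subunit and helps recruit messenger RNA, at 198.2 in 57-4 ovules against 54.6 in Pima S-1 ovules (1.86). Other subunits of the same factor were lower. Subunit 8 (DW502612) gave 78.2 in 57-4 against 131.1 in Pima S-1 (-0.75), and eIF3g (DV849866) gave 1023.0 in 57-4 against 1394.2 in Pima S-1 (-0.45). The cap-binding eIF(iso)4E (DR453406) gave 329.2 in 57-4 against 481.9 in Pima S-1 (-0.55), and the RNA helicase eIF4A-10 (AI726446) gave 280.9 in 57-4 against 377.4 in Pima S-1 (-0.43). For eIF5, which triggers GTP hydrolysis at the start codon, AI055045 gave 1616.1 in 57-4 against 2366.2 in Pima S-1 (-0.55) and DT571531 gave 259.0 in 57-4 against 352.1 in Pima S-1 (-0.44).

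The 3 transcription initiation factor probe sets were also lower in 57-4 ovules. TFIIB, which positions RNA polymerase II at promoters, gave 988.2 in 57-4 ovules against 1462.7 in Pima S-1 ovules (DT050173, -0.57) and 1147.3 in 57-4 against 1948.3 in Pima S-1 (DT048715, -0.76). TFIID subunit 3 (DW499242) gave 379.4 in 57-4 against 419.4 in Pima S-1 (-0.14). Its description came from a chicken protein and the array's cluster title named an allergen, so the label of this probe set is doubtful. With a floor of 100, S7 DW232903 (0.16) and eIF3e (0.99) no longer reached 2-fold in ovules, and with quantile normalization S7 (0.89), S30 (-0.96) and L4 DT574467 (-0.98) did not.

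Other described genes linked by name to protein synthesis were lower in 57-4 ovules as well, as were most described probe sets. All 9 probe sets for poly(A)-binding proteins, tRNA synthetases, release factors and a nascent-polypeptide-associated protein were lower, with a median of -0.86. Among all described probe sets 83.8% were lower, with a median of -0.58, and 12.2% were at least 2-fold lower. Of the 9, 2 were at least 2-fold lower. Both were poly(A)-binding proteins, at 123.1 in 57-4 ovules against 527.8 in Pima S-1 ovules (CO089484, -2.10) and 172.5 in 57-4 against 387.0 in Pima S-1 (DW506642, -1.17). The 5 probe sets matching ribosomal RNA were mixed, with a median of -0.69, 2 at least 2-fold lower and 1 at least 2-fold higher.

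**Figure D3:**
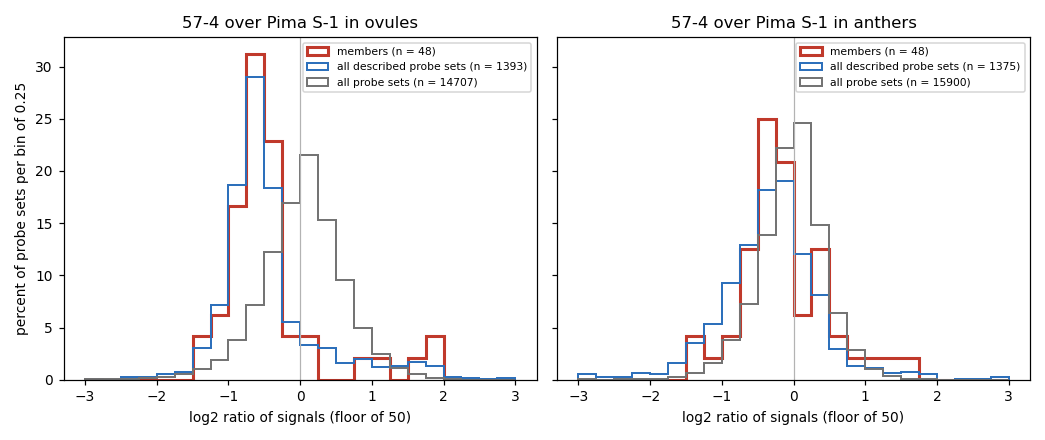
Percent of probe sets per bin of 0.25 in the log2 ratio of 57-4 over Pima S-1, in ovules and in anthers, for the translation genes ("members"), all described probe sets and all measured probe sets. In ovules the translation genes and the described probe sets peak at nearly the same place, with medians of -0.55 and -0.58, and the whole array has a median of 0.06.

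In anthers the same genes lay closer to equal signals. Of the 48 measured, 33 were lower and 15 higher in 57-4, with a median log2 ratio of -0.20, beside 0.00 over all 15900 measured probe sets and -0.29 over the 1375 described. At least 2-fold differences numbered 3 lower, against 2.71% of all measured probe sets and 12.7% of the described, and 3 higher, against 1.59% and 3.49%. The anther arrays did not bring in the 43 genes that the study listed in ovules only. These had a median of -0.23 in anthers, with 31 lower, 12 higher, 2 at least 2-fold lower and 1 at least 2-fold higher. The 1055 other measured probe sets listed in ovules only had a median of -0.21, with 69.7% lower, 2.75% at least 2-fold lower and 0.758% at least 2-fold higher. With arrays scaled on the hybridization controls the counts over all 48 were 8 lower and 1 higher, beside 11.6% lower and 0.497% higher over all probe sets. With quantile normalization they were 2 lower and 3 higher, beside 2.48% and 1.87%.

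The 3 lower in 57-4 anthers came from different roles. EF-1-alpha AI055552 gave 38.5 in 57-4 anthers against 136.4 in Pima S-1 anthers, at least 2.73-fold lower. L36 (AI726449) gave 112.7 in 57-4 against 241.8 in Pima S-1 (-1.10), and the array's cluster title for it named an unknown protein. S4 CO490783 gave 359.6 in 57-4 against 971.3 in Pima S-1 (-1.43), the opposite of its direction in ovules. Of these, AI055552 alone was at least 2-fold lower in both tissues, while L36 had an ovule ratio of -0.93. With a floor of 100 the anther ratio of AI055552 was -0.45, and with quantile normalization that of L36 was -0.997, so neither then reached 2-fold.

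The 3 higher in 57-4 anthers were all ribosomal proteins near the detection floor in Pima S-1. L10 (DW237407), which in yeast joins late in the assembly of the large subunit, gave 149.8 in 57-4 anthers against 44.2 in Pima S-1 anthers, at least 3.00-fold higher. S7 DW232903 gave 122.0 in 57-4 against 46.5 in Pima S-1, at least 2.44-fold higher, and was the one probe set at least 2-fold higher in both tissues. P0 DW236001 gave 149.6 in 57-4 against 68.7 in Pima S-1 (1.12), while the other P0 probe set gave 361.7 in 57-4 against 438.1 in Pima S-1 (DT545028, -0.28). With a floor of 100 instead of 50, none of the 3 reached 2-fold.

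Several of the genes that stood out in ovules were less far apart in anthers, though not AI055552 and S7 DW232903. Because these genes were picked by their ovule ratios, smaller anther ratios are not a separate result. S3 gave 6825.5 in 57-4 anthers against 4513.2 in Pima S-1 anthers (0.60), S14 DW229123 gave 956.0 in 57-4 against 771.4 in Pima S-1 (0.31), and eIF3e gave 163.6 in 57-4 against 119.8 in Pima S-1 (0.45). All 3 were higher in 57-4 in both tissues. P1 gave 506.2 in 57-4 against 564.3 in Pima S-1 (-0.16), and S30 gave 300.4 in 57-4 against 284.9 in Pima S-1 (0.08). EF-2 kept its direction with all 3 probe sets, at 71.8 in 57-4 against 140.7 in Pima S-1 (CO122668, -0.97), 991.4 in 57-4 against 1736.7 in Pima S-1 (DT559985, -0.81) and 166.4 in 57-4 against 213.2 in Pima S-1 (DT459761, -0.36).

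The 5 measured EF-1-alpha probe sets were split in anthers, 3 lower and 2 higher. CA993048 gave 870.1 in 57-4 anthers against 820.3 in Pima S-1 anthers (0.09), DV848701 gave 794.6 in 57-4 against 635.2 in Pima S-1 (0.32), and DR460137 gave 462.6 in 57-4 against 543.7 in Pima S-1 (-0.23). These differences were small beside that of AI055552. The 2 eIF5 probe sets also parted, at 1558.7 in 57-4 against 1279.7 in Pima S-1 (AI055045, 0.28) and 147.4 in 57-4 against 240.9 in Pima S-1 (DT571531, -0.71). Of the 48 genes measured in both tissues, 32 were lower in 57-4 in both, 6 were higher in both, 9 were lower in ovules and higher in anthers, and 1, S4 CO490783, was higher in ovules and lower in anthers. As shares, 66.7% of the translation genes were lower in both and 12.5% higher in both, beside 65.1% and 7.43% of 1345 described probe sets and 29.6% and 30.8% of 13428 on the whole array.

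The remaining probe sets of S4, L4, L44, S16, S7 and S14 stayed within 2-fold in anthers. S4 DT527088 gave 3422.9 in 57-4 anthers against 3665.6 in Pima S-1 anthers (-0.10), DR462447 gave 204.2 in 57-4 against 249.4 in Pima S-1 (-0.29), and DW496017 gave 805.2 in 57-4 against 643.8 in Pima S-1 (0.32). S4 thus had probe sets on both sides of equality even without CO490783. L4 was lower with CO084464, at 2301.1 in 57-4 against 2865.5 in Pima S-1 (-0.32), and with DT574467, at 429.6 in 57-4 against 617.6 in Pima S-1 (-0.52), and higher with DT460294, at 111.8 in 57-4 against 80.4 in Pima S-1 (0.48). For L44 and S16 both probe sets were lower in 57-4 anthers, as in ovules, with ratios of -0.59 (AI727941) and -0.27 (AI728543) for L44 and -0.25 (AI729708) and -0.43 (AJ513507) for S16. S7 DR457107 gave 439.8 in 57-4 against 632.6 in Pima S-1 (-0.52), and S14 DR456155 gave 504.9 in 57-4 against 645.8 in Pima S-1 (-0.36), again opposite in sign to the other probe set of each protein.

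The tissues were then compared within each genotype. These ratios share the ovule arrays by which most of the genes had been listed. In Pima S-1, 38 of the 47 measured translation genes had a lower signal in anthers than in ovules, with a median log2 ratio of anthers over ovules of -0.45, beside 0.20 over all 14809 measured probe sets and -0.25 over the described ones. At least 2-fold differences numbered 11 lower, against 8.6% of all measured probe sets and 20.1% of the described, and 2 higher, against 12.7% and 8.41%. In 57-4, 29 of 48 were lower in anthers and the median was -0.12, beside 0.12 over 16289 probe sets and -0.07 over the described ones, and with scaling on the hybridization controls this median was 0.06. There, 7 were at least 2-fold lower, against 7.26% and 14.6%, and 2 at least 2-fold higher, against 7.96% and 5.62%. With that scaling the counts were 3 lower and 4 higher in 57-4, beside 5.51% and 11.8% over all probe sets, and 7 lower and 4 higher in Pima S-1, beside 5.77% and 21.4%. With ratios centred on the median of all probe sets 17 were lower and 1 higher in Pima S-1, beside 11.2% lower and 8.54% higher over all probe sets. With the ovule columns exchanged, the contrast between the genotypes turned round, with a median of -0.70 and 19 lower in 57-4 and a median of 0.02 and 6 lower in Pima S-1.

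In both genotypes 27 genes, 57.4% of the 47, were lower in anthers and 7, 14.9%, were higher, beside 42.3% and 25.4% of the described probe sets and 28.3% and 47.0% of all. The 5 that were at least 2-fold lower in anthers of both genotypes were 3 EF-1-alpha probe sets, P0 DW236001 and TFIID subunit 3. They made up 10.6% of the 47, close to the 10.3% of the described probe sets, beside 5.22% of all. EF-1-alpha DR460137 gave 462.6 in anthers against 971.5 in ovules of 57-4 (-1.07) and 543.7 in anthers against 1605.5 in ovules of Pima S-1 (-1.56). CO122880 gave 284.4 in anthers against 593.0 in ovules of 57-4 (-1.06) and 306.8 in anthers against 785.4 in ovules of Pima S-1 (-1.36). AI055552, the third, gave 38.5 in anthers against 137.8 in ovules of 57-4, at least 2.76-fold lower, and had a ratio of -1.11 in Pima S-1.

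Another EF-1-alpha probe set had the opposite tissue pattern. DV848701 gave 794.6 in anthers against 304.2 in ovules of 57-4 (1.39) and 635.2 in anthers against 463.5 in ovules of Pima S-1 (0.45). CA993048 differed little in 57-4 (0.03) and was lower in anthers of Pima S-1 (-0.63). The array's cluster titles named an unknown protein for DV848701 and a protein translocase for CA993048, so the EF-1-alpha probe sets are not equally certain. Initiation factor eIF3 subunit 8 also gave more signal in anthers, at 217.6 against 78.2 in ovules of 57-4 (1.48) and 231.1 against 131.1 in ovules of Pima S-1 (0.82).

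**Figure D4:**
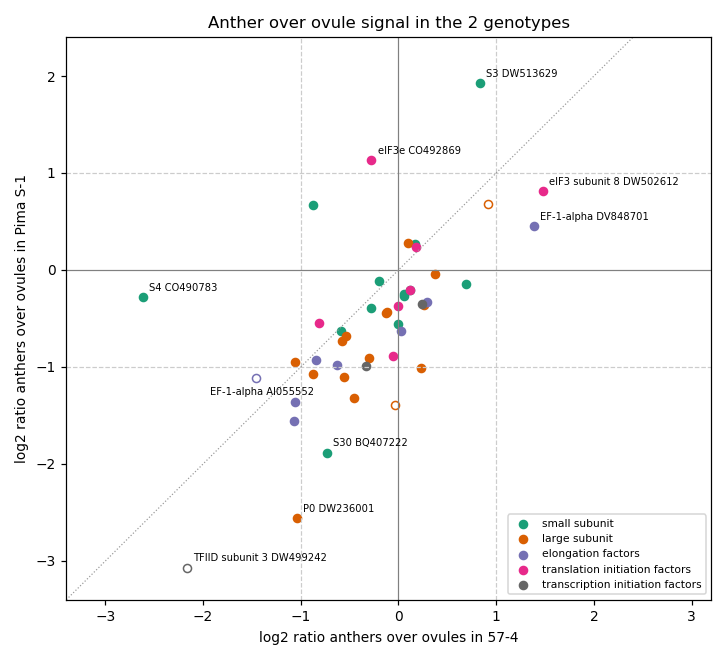
Log2 ratio of anthers over ovules in 57-4 (horizontal) and in Pima S-1 (vertical) for the 47 probe sets measured in both, coloured by role; open points are lower bounds in at least one genotype, dashed lines mark 2-fold and the dotted line marks equal ratios. Most points lie below the dotted line, S4 CO490783 lies far left at -2.62 and -0.28, and eIF3e lies above it at -0.28 and 1.13.

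The tissue ratio differed between the genotypes for several genes with a large genotype ratio in ovules. That follows from the choice of genes unless their genotype ratio in anthers is as large, so it is not a separate result. S3 gave 6825.5 in anthers against 3840.4 in ovules of 57-4 (0.83) and 4513.2 in anthers against 1187.4 in ovules of Pima S-1 (1.93). S30 gave 300.4 in anthers against 500.2 in ovules of 57-4 (-0.74) and 284.9 in anthers against 1050.5 in ovules of Pima S-1 (-1.88). P1 gave 506.2 in anthers against 432.5 in ovules of 57-4 (0.23) and 564.3 in anthers against 1132.9 in ovules of Pima S-1 (-1.01). For all 3 the genotypes lay closer in anthers than in ovules. P0 DW236001 and TFIID subunit 3 had small genotype ratios in ovules (-0.40 and -0.14). In anthers their genotype ratios were larger (1.12 and 0.76, the second a lower bound). P0 DW236001 had tissue ratios of -1.04 in 57-4 and -2.56 in Pima S-1. TFIID subunit 3 gave 84.8 in anthers against 379.4 in ovules of 57-4 (-2.16) and in Pima S-1 gave 10.9 in anthers against 419.4 in ovules, a difference of at least 8.39-fold.

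By role, the tissue medians in Pima S-1 were -0.95 for the elongation factors, with 3 of 8 at least 2-fold lower in anthers, and -0.82 for the large subunit, with 6 of 16. Beside these counts, 8.6% of all measured probe sets and 20.1% of the described were lower, and 5 of the 8 were EF-1-alpha. The medians were -0.25 for the small subunit and -0.20 for the translation initiation factors. Each had 1 gene at least 2-fold higher in anthers, S3 and eIF3e, beside 12.7% of all and 8.41% of the described. In 57-4 the corresponding medians were -0.74, -0.22, 0.03 and 0.00. With the ovule columns exchanged, the medians in the same order of roles were -1.60, -0.97, -0.43 and -0.33 in 57-4 and -0.03, -0.03, 0.14 and 0.17 in Pima S-1. The S4 probe sets other than CO490783 lay between -0.27 and -0.15 in Pima S-1 and between 0.06 and 0.69 in 57-4.

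Of the 49 probe sets, 15 were designed for a single transcript and 34 carry a suffix for probes shared by several transcripts, so members of a ribosomal protein family may share signal. The 14 measured single-transcript probe sets had a median of -0.59 in ovules and -0.07 in anthers. The array's cluster titles named a translation protein for 23 probe sets, something else for 8 and nothing for 18. The 22 measured probe sets with a translation title had medians of -0.51 in ovules and -0.34 in anthers, with 2 at least 2-fold lower and 1 at least 2-fold higher in ovules and none in anthers in either direction.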

How the data were processed

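Biotin-labelled cRNA of 4 pooled RNA samples was hybridized to 1 Affymetrix Cotton Genome Array each. The authors deposited linear intensities, MAS5 signals of the Affymetrix software (version not given in the sources used here), brought to the same mean on every array with 2% of values trimmed at each end. The table holds 24132 probe sets, and 103 controls were left out. Genes were named through GenBank accessions, matched without versions, from the study's lists, whose fold-change columns were not used. A further 8 accessions of 57 with the chosen words were tied to no probe set here.

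Log2 ratios were computed in Python 3.11.15 (numpy 2.4.6, pandas 2.3.3) after a floor of 50 and counted from a log2 ratio of 1 in either direction. No test was run: an additive fit of genotype and tissue leaves 1 residual degree of freedom. Named genes were those at least 2-fold apart between genotypes, proteins with several probe sets and the 3 brightest per role. Members and lists were chosen with earlier results of these data known. The counting was tested on simulated data. Results were recomputed without a floor, with a floor of 100, 3 scalings, single-transcript probe sets, a threshold of 1.5, accession versions kept, no transcription factors, exchanged ovule columns and, added after the data were seen, both signals at least 500. The number of arrays limits the precision. No sequences of the members were used here.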

Additional observations from a re-analysis of the deposited data

Results flagged for a closer look

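In 3 probe sets a ratio of at least 2-fold in 1 group faced an opposite log2 ratio of at least 0.25 in the other. Smaller opposite ratios are not listed here. With 1 array per group none of these differences was tested. For S4 CO490783 the 57-4 over Pima S-1 log2 ratio was -1.43 on the anther arrays and 0.91 on the ovule arrays. That of P0 DW236001 was 1.12 on the anther arrays and -0.40 on the ovule arrays, and its anther signals were low. The anther over ovule ratio of eIF3e CO492869 was -0.28 in 57-4 and 1.13 in Pima S-1.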

How the results depend on the processing

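Of 132 recomputed medians and counts, 77 kept their direction and stayed close, 51 moved and 4 reversed. Of 135 recomputed ratios of single named genes, 96 stayed close, 30 moved and 9 reversed. Some settings could not change a given value. A threshold moves no median and no single ratio, and a choice of probe sets moves no single ratio. Exchanged ovule columns move no genotype ratio in anthers. The numbers that stayed close are therefore no measure of stability.

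Exchanging the ovule columns turned the ovule median to 0.55 and the single ratios to 1.10 (AI055552), 1.07 (BQ407222), 1.32 (CO122668), 1.06 (DT574467), 1.39 (DW227400), -1.86 (CO492869), -1.85 (DW229123), -1.16 (DW232903) and -1.69 (DW513629). It also gave anther over ovule medians of -0.70 in 57-4 (4 higher, 19 lower) and 0.020 in Pima S-1 (6 lower).

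Scaling on the hybridization controls, which moved the median of all probe sets to -0.31 in ovules, -0.44 in anthers, 0.26 for anthers over ovules in 57-4 and 0.44 in Pima S-1, gave medians of -0.92 in ovules (18 lower) and -0.68 in anthers (1 higher, 8 lower). For anthers over ovules it gave 0.061 in 57-4 (4 higher, 3 lower) and -0.16 in Pima S-1 (4 higher, 7 lower). Centring gave tissue medians of -0.24 in 57-4 and -0.65 in Pima S-1 (1 higher, 17 lower). Quantile normalization left 3 lower in ovules and 1 higher in anthers of Pima S-1.

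Single-transcript probe sets, far fewer, gave 1 higher and 2 lower in ovules, a median of -0.072 and 1 lower in anthers, and tissue medians of 0.15 in 57-4 (1 higher, 2 lower) and -0.35 in Pima S-1 (0 higher, 4 lower). The log2 threshold of 1.5 left 0 lower in ovules, 1 higher and 0 lower in anthers, and in the tissue comparison 0 higher and 2 lower in 57-4 and 1 higher and 4 lower in Pima S-1. The floor of 100 left 2 higher in ovules, 0 higher in anthers and 1 higher for tissue in Pima S-1. With it eIF3e stood at 0.99 in ovules. Keeping accession versions left 1 higher in ovules, in anthers and for tissue in Pima S-1.

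With both signals at least 500, chosen after seeing the data, 1 higher and 2 lower remained in ovules, 0 and 0 in anthers, 0 and 0 for tissue in 57-4, and 1 higher and 4 lower in Pima S-1, where the median was -0.59. The cause of these shifts was not tested, except that several settings hold fewer probe sets. A fit that pairs the genotypes by tissue was not run. Signals near the floor of 50 set only lower bounds.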
